A study of Danio rerio with 4 samples.

Results

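Dense stretches of neighbouring peaks were examined in the open chromatin of zebrafish heart cells. A stretch, called a chain here, was a run of at least 5 peaks in which each peak began less than 5000 bp after the end of the one before it. Chains were taken over all peaks of the deposited matrix, and peaks of chromosome 4 that start at 30000000 or beyond, or that lie within 1000000 bp of the first or last peak of a chromosome, were then left out. The rule used positions only and no openness value. Peaks are themselves called from sequencing reads, so where they lie is not independent of how open they are. It gave 1922 member peaks in 334 chains, which is 3.81% of the 50394 peaks. Of 359 chains of 5 peaks or more, 25 with 157 peaks lay in the zones near chromosome ends, among them the longest of all with 16 peaks, and no chain was cut in part. Chains are numbered here from 1 to 334 in genome order.

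The study profiled wild type zebrafish by single-nucleus ATAC-seq, a droplet assay that reads where a transposase can reach the DNA of single nuclei. Nuclei came from non-cardiomyocytes (nonCMs) isolated from ventricles at 0, 2, 7 and 14 days post amputation of the apex (dpa), with 1 library per time point. In another experiment the study uses 0 dpa for uninjured hearts. Per the study the nuclei came from uninjured and regenerating hearts, and per the labels all 4 groups were wild type, with cardiomyocytes removed by isolation and again by cluster. No row of the matrix is tied to a library, so the 2737 nuclei were treated as 1 pooled sample, time points were not compared, and no value below has a replicate or a p-value. Each value of the matrix is 0 or 1, that is, a peak is called open or not open in a nucleus. The number of open peaks in a nucleus ran from 77 to 10959 around a median of 1147. Barcodes numbered 2731, since 6 occurred in 2 rows.

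A peak of accessible chromatin usually marks a promoter or an enhancer, a site where transcription factors keep nucleosomes away. Genes that define a cell type, or that respond strongly to injury, are often surrounded by several enhancers within a short distance, and dense groups of enhancers have been described under names such as super-enhancers and stretch enhancers. Peak density also rises where genes are packed closely and each brings its own promoter. Position alone does not separate these arrangements, and no gene positions in the build of the peaks (danRer11, also called GRCz11) were used here. Peak names give coordinates, which are printed as the matrix gives them.

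Most chains were short. There were 188 chains of 5 peaks, 78 of 6, 44 of 7, 14 of 8, 7 of 9, 2 of 10 and 1 of 11. A chain spanned a median of 12.9 kb, from 4.27 to 37.8 kb, and the 334 chains together covered 4.56 Mb. Peaks filled a median of 15.3% of a chain's span, so most of each stretch lay between peaks. The median gap inside chains was 2402 bp against 10601 bp between neighbours over the whole matrix. Only 57 of 1588 gaps inside chains, 3.59%, were under 200 bp, where a single open region might have been called as a pair of peaks.

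Chains were found on all 25 chromosomes. Members made up 1.46% of the peaks of chromosome 21, the lowest share, and 6.43% of those of chromosome 4, the highest. Neighbouring chains of a chromosome lay a median of 1467 kb apart. Of 309 neighbouring pairs, 28 were under 50 kb apart, and the closest were separated by 5.53 kb, just beyond the limit of the rule.

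At the limit on gaps, the widest gap inside a chain was 4994 bp, in chain 96 on chromosome 7, between a peak open in 29 nuclei and one open in 22 nuclei. The narrowest gap outside was 5000 bp, between the last peak of chain 231 on chromosome 17, open in 149 nuclei, and a non-member open in 6 nuclei. Of the 668 gaps that flank chains, 109 were under 6000 bp. The limit on chromosome 4 removed no chain of 5 or more peaks by itself, and the last member of that chromosome began at 24120464. The member nearest a chromosome end lay 1056353 bp from the last peak of chromosome 18 and was open in 56 nuclei, and the nearest peak of a chain inside the zone lay 929948 bp from the first peak of chromosome 17 and was open in 50 nuclei.

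Members were open in more nuclei than other peaks. The median member was open in 53 nuclei, or 1.94% of nuclei (95% binomial interval of the median 1.83 to 2.01%, over peaks), against 1.24% (1.24 to 1.28%) for the 48472 other peaks. Peaks of the zones left out by position stand among the other peaks here, and among the shorter chains and peaks without a near neighbour below. The 157 of them in chains of 5 or more had a median of 2.45% (2.08 to 2.74%), above that of members. Higher openness is thus not particular to the members among dense chains. The middle 50% of members lay between 1.02% and 4.02%. The value rose with the number of neighbours: peaks with no neighbour under 5000 bp had a median of 1.02%, peaks in chains of 2 had 1.498%, in chains of 3 1.72%, in chains of 4 1.75%, in chains of 5 1.86%, in chains of 6 1.90% and in chains of 7 2.27%. It did not go on rising in longer chains, which had medians of 1.99%, 1.72%, 1.48% and 1.096% for 8, 9, 10 and 11 peaks, from 112, 63, 20 and 11 peaks. Intervals here and below cover counting error only, and peaks of 1 chain are not independent of each other.

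Rarely open peaks were scarcer among members, and widely open ones somewhat more common. Under 1% of nuclei were open at 476 of 1922 members, 24.8%, against 42.9% of other peaks. For the 157 peaks of chains left out by position it was 19.1%. At least 10% of nuclei were open at 143 members, 7.44% (95% Clopper-Pearson interval 6.31 to 8.71%), beside 5.25% of all peaks. The same share was 5.91% in chains of 2 to 4 peaks and 4.60% among peaks with no near neighbour. Members were higher than other peaks by this measure on 18 of the 25 chromosomes. No member was closed in every nucleus, but only 13 of the 48472 peaks outside the set were, so this does not set members apart. The least open member was open in 2 nuclei and the most open in 1056, while the most open peak outside the set reached 60.8%.

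Members were not wider than other peaks. Their median width was 313 bp (306 to 320 bp) against 323 bp (322 to 325 bp), and the median was lower for members on 16 of 25 chromosomes. The 157 peaks of chains left out by position had a median width of 346 bp (323 to 377 bp). Width and openness go together over all peaks, so the classes were also compared at like width. Among peaks of 301 to 400 bp, the median was 2.23% in members, 1.86% in chains of 2 to 4 and 1.21% in peaks without a near neighbour. Among the narrowest peaks, of exactly 200 bp, the values were 0.621%, 0.438% and 0.292%. Among peaks wider than 700 bp, the classes came closer, at 10.6% (8.77 to 12.2%), 9.54% and 8.40%, and the intervals of members and of chains of 2 to 4 overlapped there, as they did at 401 to 500 bp and at 501 to 700 bp. The order of the 3 classes was the same in all 7 width classes.

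**Figure D1:**
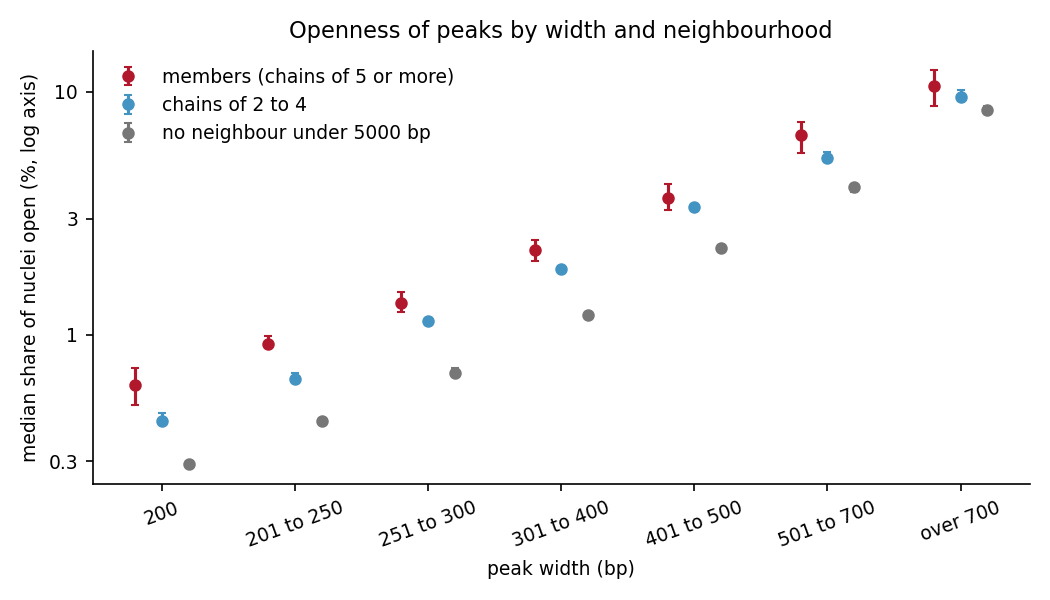
Median share of nuclei in which a peak is open (log axis) in 7 classes of peak width, for members, for peaks in chains of 2 to 4, and for peaks with no neighbour under 5000 bp. Bars are 95% binomial intervals of the median over peaks; members lie above the other classes at each width, from 0.621% at 200 bp to 10.6% over 700 bp.

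The difference was present on every chromosome. The median of members exceeded that of the other peaks on 25 of 25 chromosomes, by 0.71 ± 0.25 percentage points (mean ± SD over chromosomes). It was smallest on chromosome 1, where members had 1.57% and other peaks 1.28%. It was largest on chromosome 14, where 38 members in 6 chains had 2.69% and other peaks 1.35%. Chromosomes are parts of the same nuclei and are not replicates of the experiment.

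**Figure D2:**
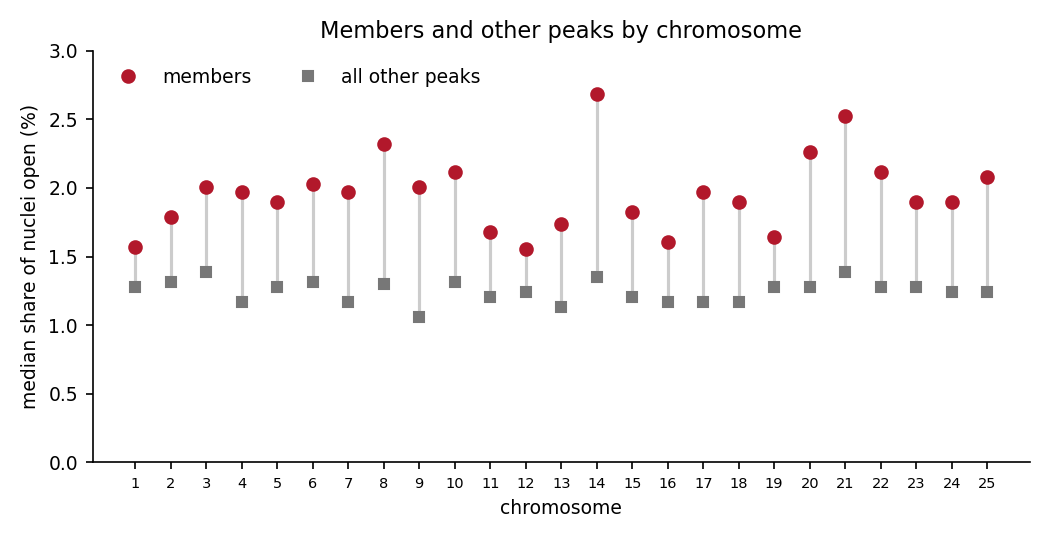
Median share of nuclei open for members (circles) and all other peaks (squares) on each of the 25 chromosomes. Members range from 1.55% to 2.69% and other peaks from 1.06% to 1.39%, and the circle lies above the square on each chromosome.

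Members took 182242 of 3742096 open calls, 4.87%, from 3.81% of the peaks. Every nucleus was open at 3 or more members, with a median of 54 and a highest value of 565. The share of a nucleus's open calls that fell in members had a median of 4.74%, with a 5th percentile of 3.04% and a 95th percentile of 6.84%. In 4 groups of nuclei from the fewest to the most open peaks, members took 4.65%, 4.66%, 4.88% and 5.005% of calls. Over the same groups the median number of open members went from 28 to 112.5. The rows of the matrix fall into 4 runs of alphabetical barcodes of 430, 715, 748 and 844 nuclei, which nothing ties to time points. The median of members was 1.86%, 2.38%, 2.14% and 1.30% in these runs, against 1.16%, 1.40%, 1.47% and 0.829% for other peaks, so members were higher in each run.

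Within a chain, openness was uneven. The most open peak of a chain held a median of 38.5% of the chain's open calls, from 15.3% to 79.9%, and in 72 chains, 21.6%, it held more than 50%. The most open peak was open in a median of 8.55 times as many nuclei as the least open one. It was also the widest peak in 218 of 334 chains. It lay at an end of the chain in 119 chains, 35.6%, and end peaks make up 34.8% of all members. End peaks had a median of 1.77% and a median width of 326 bp, and inner peaks had 2.01% and 307 bp.

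No peak reached 10% of nuclei in 228 chains, 1 peak did in 81 chains, 2 in 15, 3 in 8 and 4 in 2. Of the 143 widely open members, 62 thus shared their chain with another. A like count was not made for other peaks, so this is not a result about the chains. As a whole, a chain was open at 1 or more of its peaks in a median of 13.6% of nuclei, from 2.63% to 65.4%. In 18 chains this share was under 5%, and in 61 chains it was over 25%.

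The longest chain, chain 173 (chr13:46109610-46147419, 11 peaks over 37.8 kb), was evenly and weakly open. From its first to its last peak, 48, 41, 12, 53, 17, 23, 30, 34, 24, 30 and 34 nuclei were open, which is 0.438% of nuclei at the lowest and 1.94% at the highest. Its most open peak, the fourth, was the widest at 562 bp, and it held 15.3% of the calls, the lowest share of any chain. A peak of the chain was open in 285 nuclei, 10.4%, and no more than 4 of the 11 were open in the same nucleus.

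Chain 332 (chr25:34495079-34520814, 10 peaks over 25.7 kb) was instead led by a single peak. From its first to its last peak, 36, 49, 67, 179, 63, 101, 407, 40, 40 and 69 nuclei were open. The seventh peak, 535 bp wide, was open in 14.9% of nuclei (13.6 to 16.3%) and the fourth in 6.54% (5.64 to 7.53%), while the first was open in 1.32%. The other chain of 10 peaks, chain 15 (chr2:31001190-31030749), had 49.7% of its calls in its last peak, which was 908 bp wide and open in 290 nuclei, 10.6% (9.47 to 11.8%). Its other 9 peaks were each open in at most 69 nuclei.

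**Figure D3:**
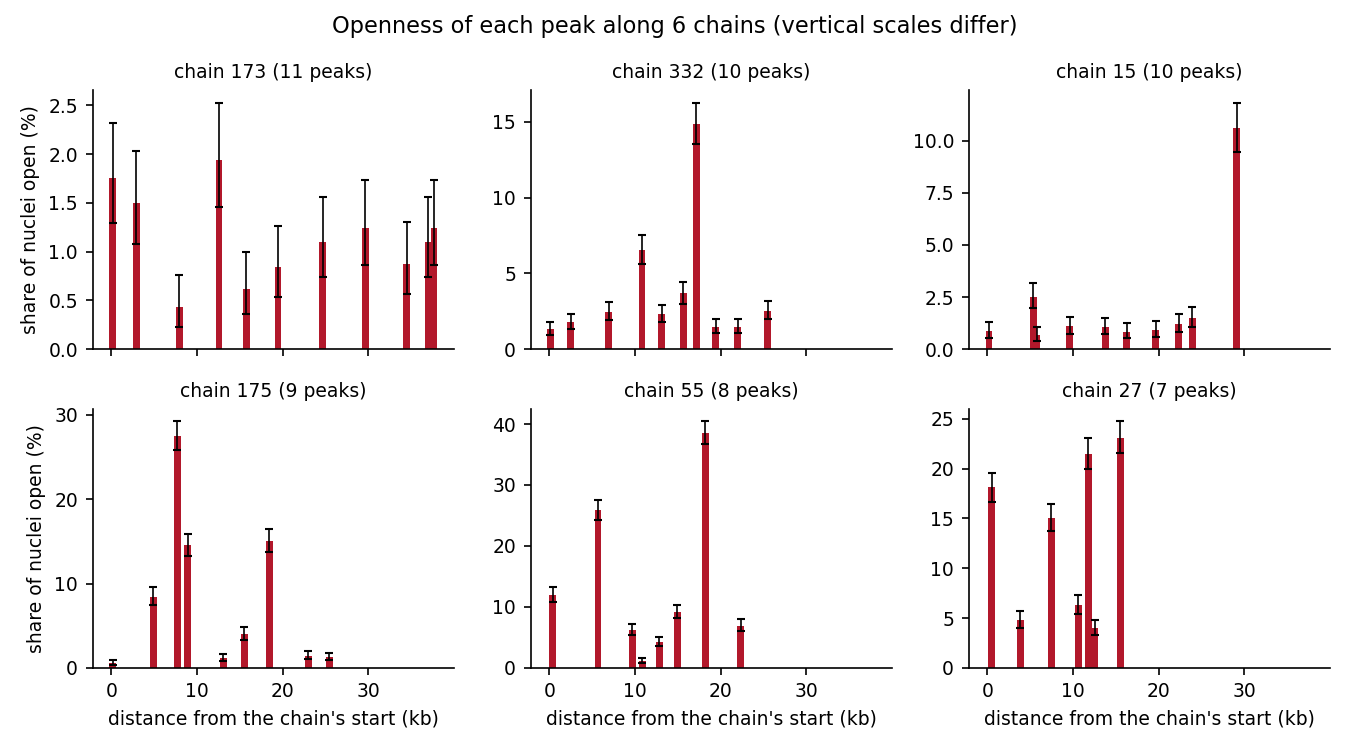
Share of nuclei open at each peak of 6 chains, by the distance of the peak's middle from the start of the chain in kb, with 95% Clopper-Pearson intervals. Bars are drawn wider than the peaks and vertical scales differ; chain 173 stays below 2%, chains 332 and 15 have a single leading peak, and chain 27 has 4 peaks above 15%.

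The 7 chains of 9 peaks differed widely. Chain 152 (chr12:27449605-27473818) was the weakest of them: its most open peak was open in 36 nuclei, 1.32%, its least open in 5 nuclei, 0.183%, and any of the 9 in 5.37%. Chain 229 (chr17:37808550-37835666) had its peaks between 18 nuclei, 0.658%, and 60 nuclei, 2.19%. In chain 177 (chr14:27945794-27967599) they lay between 14 and 117 nuclei, 0.512% and 4.27%, and in chain 10 (chr1:54390784-54414650) between 13 and 132 nuclei, 0.475% and 4.82%.

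The other 3 chains of 9 were open in far more nuclei. Chain 48 (chr4:11598692-11631715) ran from 15 nuclei, 0.548%, to 261 nuclei, 9.54%, and it had 7 peaks open at once in at least 1 nucleus, the most of the chains of 9. Chain 267 (chr20:32291030-32315777) ran from 27 nuclei, 0.986%, to 626 nuclei, 22.9% (21.3 to 24.5%). Chain 175 (chr13:49436937-49462592) ran from 16 nuclei, 0.585%, to 753 nuclei, 27.5% (25.8 to 29.2%), and was open at some peak in 50.5% of nuclei, so that chains with the same number of peaks differed by nearly an order of magnitude in this share.

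The chain with the highest median was chain 27 (chr3:26112007-26128252, 7 peaks), at 15.1% of nuclei. Its peaks were open in 109 to 633 nuclei, 3.98% to 23.1%, and the most open, 1427 bp wide, was the widest of all members. It was followed by chain 333 (chr25:35045178-35058463, 6 peaks) with a median of 12.4% and peaks from 127 to 663 nuclei, 4.64% to 24.2%. Chain 80 (chr7:21749493-21764371, 7 peaks) had a median of 11.4% and peaks from 32 to 521 nuclei, 1.17% to 19.04%. Chain 75 (chr6:31361477-31368388, 5 peaks within 6.91 kb) had the most even peaks of these, from 147 to 325 nuclei, 5.37% to 11.9%, and a median of 10.6%. Chain 109 (chr8:20429066-20439704, 6 peaks) had a median of 9.63% and peaks from 45 to 738 nuclei, 1.64% to 26.96%.

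By the share of nuclei open at any peak, chain 55 (chr4:22457998-22480505, 8 peaks over 22.5 kb) came first with 1791 nuclei, 65.4%. Its seventh peak was the most open of all members, in 1056 nuclei, 38.6% (36.8 to 40.4%), and the fourth, 213 bp wide, was open in 32, 1.17%. Chain 333 followed with 53.5%, chains 27 and 175 with 50.5% each (1383 nuclei in both), and chain 109 with 48.6%. In 28.2% of nuclei, chain 55 was open at 2 peaks or more, and in chain 27 that share was 26.1%.

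Whether the peaks of a chain opened in the same nuclei was asked by counting nuclei open at both of a pair, over the number given by each peak's own rate and the depth of each nucleus. Only peaks open in at least 50 nuclei entered, which holds for 1012 of 1922 members, 52.7%, and for 39.0% of all peaks. Neighbouring members were open together 1.48 times as often as given (11428 nuclei against 7742 over 536 pairs), with an SD of 0.29 over chromosomes and values above 1 on 25 of 25. Members set against members of other chromosomes gave 1.09 ± 0.12 (SD over chromosomes).

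This excess was not set apart from that of other neighbours at like distance. Neighbouring pairs outside the chains with a gap under 5000 bp gave 1.44 ± 0.08, and at gaps of 2000 to 4999 bp the values were 1.52 ± 0.30 inside and 1.44 ± 0.10 outside. At gaps under 200 bp they were 1.98 from 21 pairs inside and 1.82 from 171 outside. Outside the chains, the ratio fell with the gap, to 1.38 at 5000 to 9999 bp, 1.28 at 10000 to 19999 bp, 1.17 at 20000 to 49999 bp and 1.07 at 50000 bp or more. Within chains, peaks a single step apart gave 1.48, and those 2, 3, 4 and 5 steps apart gave 1.45, 1.34, 1.32 and 1.21. Those 6, 7 and 8 steps apart gave 1.23, 0.872 and 2.004, from only 26, 6 and 2 pairs. Pairs many steps apart come only from longer chains, so the steps do not cover the same chains.

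The ratio was lower when kinds of nuclei were kept apart. With the expected number taken within clusters of nuclei built without the members, the ratio of neighbouring members was 1.25 ± 0.07 (SD over chromosomes) and that of other neighbours under 5000 bp 1.26 ± 0.04. The other neighbours helped to make the clusters and the members did not, so these values are not like for like. Taken within the 4 runs of rows, it was 1.45 and 1.42. Pairs of members on different chromosomes gave 1.04 within clusters.

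**Figure D4:**
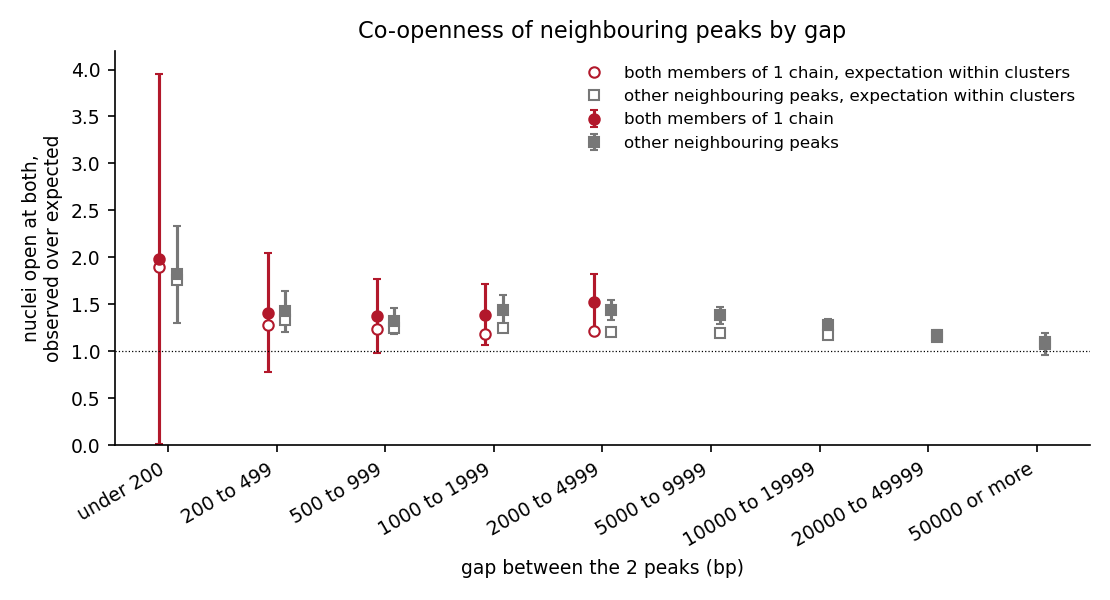
Nuclei open at both of 2 neighbouring peaks, observed over expected, by the gap between them, for pairs inside chains (circles) and other neighbours (squares). Filled points carry the SD over chromosomes. Open points use an expectation within clusters of nuclei, which peaks outside the chains helped to make. Filled inside and outside values overlap at each gap under 5000 bp, and those outside fall to 1.07 at 50000 bp or more.

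Chains differed in this ratio. It was summed over all pairs of a chain's peaks that were open in at least 50 nuclei. Among the 24 chains with at least 200 expected joint openings, it ran from 1.01 to 1.78 with a median of 1.18. Chains under that limit ran further both ways, as chain 61 at 3.45 (291 against 84.4) and chain 69 at 0.755 (17 against 22.5). The highest of the 24 belonged to chain 226 (chr17:37474523-37493749, 6 peaks), with 435 joint openings against 244 expected. Its first peak was open in 509 nuclei, 18.6%. Its second, open in 15, 0.548%, did not enter the ratio. Chain 48 gave 1.76, with 404 against 230 and all 21 of the pairs that entered above 1. Chain 268 (chr20:46550192-46559964, 6 peaks, from 53 to 568 nuclei) gave 1.47, with 365 against 249.

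At the low end of the 24, the peaks of chain 55, the most widely open chain, were open together as often as their rates give, at 1.01 (1382 against 1371). Of the 21 pairs of chain 55 that entered, 12 were above 1. Chain 179 (chr14:32865615-32884486, 8 peaks from 36 to 498 nuclei) gave 1.08, and chain 282 (chr22:16496819-16510843, 6 peaks from 53 to 595 nuclei) gave 1.1003. Within clusters of nuclei the 24 chains ran from 1.04 to 1.34, and the order changed: chain 226 gave 1.04, the lowest, and chain 55 gave 1.08.

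The nuclei were clustered on the peaks outside the chains, which gave 16 clusters, 10 of them with at least 100 nuclei and 2324 nuclei together. These clusters carry numbers and no cell type name, since no gene positions were used to place marker genes on the peaks. Members took 3.63% of open calls in cluster 1, 3.98% in cluster 2 and 3.87% in cluster 10, the 3 lowest of the 10, and 6.01% in both cluster 6 and cluster 8, the highest. The middle 50% of nuclei lay between 3.25% and 4.03% in cluster 1 and between 5.60% and 6.62% in cluster 6, without overlap. The share was nearly the same in each run of rows that held 20 or more nuclei of a cluster: 3.48% to 3.75% in cluster 1 and 5.82% to 6.22% in cluster 6. Chains of 2 to 4 took 45.8%, 45.6% and 46.3% in clusters 1, 2 and 10 and 48.1% and 47.8% in clusters 6 and 8. Their lowest shares, 43.3% and 43.8%, were in clusters 4 and 9. Peaks with no near neighbour took 50.3%, 50.1% and 49.5% in clusters 1, 2 and 10 and 45.4% and 45.7% in clusters 6 and 8.

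Beside the share of members stand those of widely open peaks and the depth, whose part in it was not tested. Peaks open in at least 10% of all nuclei took 44.9%, 40.3% and 40.0% of calls in clusters 1, 2 and 10 and 27.4% in cluster 6, but 35.5% in cluster 8 and the lowest shares of the 10, 24.8% and 22.5%, in clusters 4 and 9, where members took 4.22% and 4.49%. With these widely open peaks left out, members took 3.39%, 3.85% and 3.64% in clusters 1, 2 and 10 and 6.09% and 5.93% in clusters 6 and 8. The median number of open peaks was 987, 702 and 1102 in the first 3 and 1276 and 764 in the last 2.

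Chains were next described across these clusters. For each chain, its open calls in a cluster, scaled to the cluster's total as CPM, were divided by those in the nuclei outside it, with 10 CPM added on each side. Of the 286 chains with at least 200 calls, 191, or 66.8%, were 2-fold or more higher in some cluster of at least 100 nuclei, and 25, or 8.74%, were 4-fold or more higher. Among 2904 chains of 2 to 4 peaks with as many calls, the shares were 55.2% and 5.51%. Those chains had fewer calls, with a median of 338 against 502, and their peaks helped to make the clusters, so the shares are not like for like. The ratio is the highest of 10 for each chain, which lies above 1 by selection, and 35 of the 191 had fewer than 200 calls outside that cluster and entered only through it. The values are a description and show nothing particular to the chains. Each leading chain below had the highest ratio of the 286 in its cluster, so higher peaks there follow in part from that choice. Intervals of its peaks, and whether they lie apart, cover counting error over nuclei, which are not replicates, and are no test.

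Chain 66 (chr5:42270226-42286123, 5 peaks) led clusters 1, 2 and 10. It had 1043 CPM in cluster 1 and 143 CPM in all other nuclei, a ratio of 6.87 (95% counting interval 6.004 to 7.85), and the ratio was 4.12 in cluster 2 and 4.71 in cluster 10. In cluster 1, 232 of 324 nuclei were open at 1 or more of its peaks, 71.6% (66.4 to 76.5%), against 15.3% of the others. All 5 peaks were higher in each of the 3 clusters, for whose ratios the chain was chosen. Counting intervals were apart for 4, 3 and 5 of them in clusters 1, 2 and 10. The most open, its second peak, was open in 46.0% of cluster 1 and 8.04% of the other nuclei. The least open, the fourth, was open in 2.78% and 0.870%, with overlapping intervals. In the 4 runs of rows, the ratio in cluster 1 was 12.8, 11.2, 5.58 and 4.10. The CPM was 997, 1361, 987 and 908 in the cluster and 68.8, 112, 169 and 214 outside it. Its lowest ratio was 0.059, in cluster 7.

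Chain 28 (chr3:28569299-28582247, 5 peaks) had the highest ratio of any leading chain, 8.98 (6.96 to 11.5) in cluster 8, and was open at some peak in 40.7% of its 167 nuclei against 7.59% of the others. Of its 5 peaks, 4 were higher in the cluster. The first was open in 0 of 167 nuclei of the cluster (upper limit 2.18%) and in 0.973% of the others, while the fourth was open in 8.98% against 0.233%. The most open over all nuclei, the fifth, was open in 13.8% against 2.88%.

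Chain 208 (chr16:36093599-36106876, 5 peaks) led cluster 6 with a ratio of 7.35 (5.94 to 9.05), and was open at some peak in 43.9% of its nuclei against 5.44%. It had 142 calls in cluster 6 and 160 in all other nuclei, so it reached the limit of 200 calls only through the cluster it leads. Its most open peak over all nuclei, the first (98 nuclei), was open in 5.91% of cluster 6 and 3.36% of the others, with overlapping intervals, while the other 4 had intervals apart. Its least open, the fourth, was open in 7.59% of cluster 6 and in 3 other nuclei, 0.120%.

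Chain 278 (chr22:12704259-12722084, 6 peaks) led clusters 3 and 7, with ratios of 2.82 (2.29 to 3.45) and 3.83 (3.17 to 4.62), and chain 61 (chr5:21207956-21217173, 5 peaks) led cluster 5 with 3.76 (3.21 to 4.38). Both were above 2 in clusters 3, 5 and 7 together. The most open peak of chain 278, the fourth, was open in 26.9% of cluster 7 and 3.70% of the others. Its least open, the sixth, was open in 2.54% and 0.866%, with overlapping intervals. The most open peak of chain 61, the third, was open in 35.4% of cluster 5 and 4.49% of the others, and its least open, the second, in 11.9% and 1.76%. All 5 peaks of chain 61 had intervals apart in cluster 5. In the smallest run of rows, the ratio was 1.54 for chain 61 in cluster 5 and 1.53 for chain 278 in cluster 3, lower than in the other runs. The CPM in the cluster there, 470 and 383, lay within the range of the other runs. The CPM outside the cluster, 302 and 247, was higher than in the other runs.

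Chain 257 (chr19:43457530-43474507, 5 peaks) led cluster 4 with 4.18 (3.46 to 5.03). It was a chain of a single strong peak, the first, with 79.2% of its calls, open in 41.6% of cluster 4 and 10.2% of the others. The fourth, its least open, was open in 5 nuclei of cluster 4, 1.82%, and 0.406% of the others, with overlapping intervals. Chain 162 (chr13:1464931-1480464, 6 peaks) led cluster 9 with 3.89 (2.99 to 5.02). It had 74 calls there and 177 elsewhere, and so it too reached the limit of 200 only through that cluster. In the 3 runs of rows with 20 or more nuclei of cluster 9, the ratio was 5.60, 2.75 and 2.74. Its most open peak, the second, was open in 21.4% of the cluster and 1.59% of the others, its least open, the fourth, in 3.25% and 0.155%. Clusters 4 and 9 were the only ones of the 10 in which chain 162 was above 2.

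**Figure D5:**
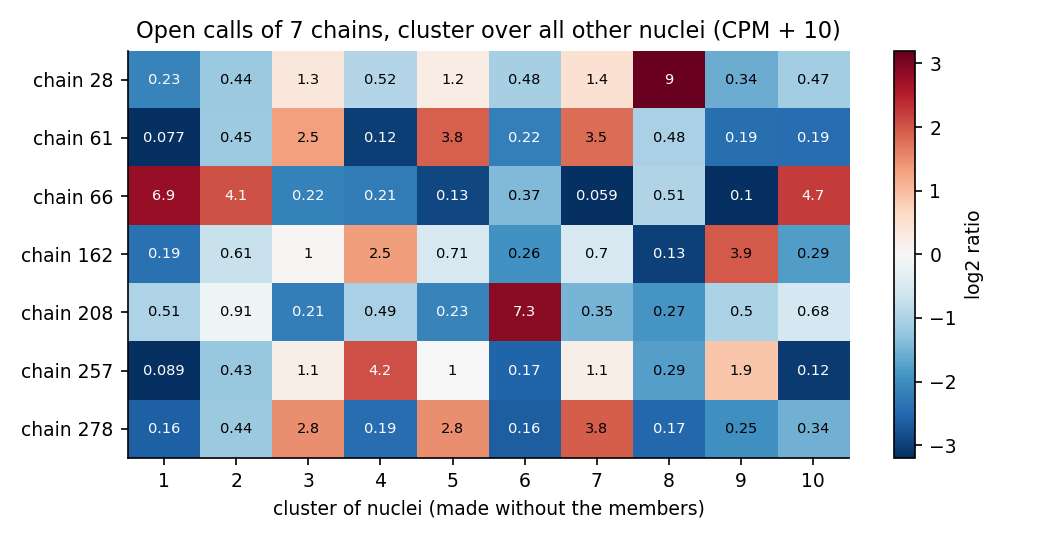
Ratio of open calls in a cluster to those in all other nuclei (CPM, 10 added to both) for the 7 chains that lead a cluster, over the 10 clusters of at least 100 nuclei. Cell numbers are ratios and colours their log2; chain 66 is high in clusters 1, 2 and 10, chains 61 and 278 in clusters 3, 5 and 7, and chains 28 and 208 each in a single cluster.

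Gene names could be attached to a minority of chains. The study pairs a set of regions, open in epicardial cells and fibroblasts and shared with candidate regeneration enhancers, with gene symbols. Of 1999 regions read, 1969 overlap a peak among the 50394 of the matrix. Of the 1922 members, 45 in 41 chains overlap such a region. These counts are not a result about the chains. The way a region was paired with its gene and the distance between them are not given, the list at hand was shortened, and a chain without a symbol is not free of genes. The symbols are therefore used as names only. Each belongs to the peak or peaks that its region overlaps, and not to the other peaks of the chain. Of the longest chains, chain 15 carries myom1a, a structural protein of the sarcomere, chain 152 meox1, a homeobox transcription factor, and chain 175 irf2bp2a, related to a transcriptional co-repressor. Chain 177 carries tsc22d3, whose mammalian counterpart is induced by glucocorticoids, chain 229 zfp36l1a, of a family of RNA-binding proteins that promote mRNA decay, and chain 267 foxo3b, a forkhead transcription factor. Chain 162, which led cluster 9, carries bag2, a co-chaperone. A paired peak need not lead its chain: it was open in 29 nuclei in chain 15 and in 36 in chain 175. In chain 38, described below, it was the most open peak.

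Other chains with a symbol are described here for the known roles of the genes, a choice made with the values in view. Chain 244 (chr18:45522269-45535941, 5 peaks) carries wt1b, a transcription factor of the epicardium. Its peaks were open in 0.585% to 3.14% of nuclei, any of them in 7.64%, and its highest cluster ratio was 2.34 in cluster 7. This is close to 2.26, the median of the highest ratios over the 286 chains with at least 200 calls. Chain 244 had 240 open calls over all nuclei, and its peak paired with wt1b was open in only 16 nuclei. The ratio covers all peaks of the chain and does not tie wt1b to cluster 7. Without its open calls in cluster 7, chain 244 would have missed the limit on calls set for this ratio. Chain 68 (chr5:46172785-46184482, 5 peaks) carries f2r, a thrombin receptor. Any of its peaks was open in 11.1% of nuclei, and its ratio reached 6.001 in cluster 8, the cluster that chain 28 led. This ratio too covers all peaks of the chain, which had 350 open calls, while the peak paired with f2r was open in 43 nuclei.

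Chain 38 (chr3:54722190-54730204, 6 peaks) carries s1pr2, a receptor for sphingosine phosphate that is needed for the heart primordia to meet in the zebrafish embryo, and was open at some peak in 10.7% of nuclei. Chain 324 (chr25:17013198-17021404, 6 peaks) carries ccnd2a, a D-type cyclin, and was open in 5.81%, with its peaks between 0.877% and 1.53%. Chain 276 (chr22:10950586-10964189, 5 peaks) carries insrb, an insulin receptor, and had 78.1% of its calls in a peak open in 12.8% of nuclei. Chain 63 (chr5:32359653-32369218, 5 peaks) carries gas1b, a surface protein that binds hedgehog ligands in mammals, and was open in 7.12%. Across the 41 chains with a symbol, the share of nuclei open at any peak ran from 2.74% (chain 142, hdac11, a histone deacetylase) to 50.5% (chain 175), and the median of the chain medians was 1.70%, against 1.97% over all 334 chains.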

How the data were processed

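Values are the deposited open calls of the authors (0 or 1 per nucleus and peak). Per the labels' processing notes and the study's methods, Cell Ranger ATAC and danRer11 were used, the 4 libraries were merged, nuclei were filtered and clustered with SnapATAC, clusters of cardiomyocytes and putative doublets were removed, and MACS called peaks. Whether these calls gave the matrix its columns, where values were binarized, and tool versions are not given in the sources used here.

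Chains were built from peak coordinates, with width as end minus start. The expected number of nuclei open at both peaks came from 1 − exp(−rate × depth) per nucleus, depth being its open peaks. Clusters used TF-IDF and singular value decomposition (scikit-learn 1.9.0) of non-member peaks, 15 components, component 1 left out for its correlation of 0.96 with log depth, 15 neighbours and Leiden at resolution 1 (python-igraph 0.11.9). Doublets were not called again. Scripts were tested on simulated data. Named chains were the 10 with most peaks, 5 with the highest median, 5 open in the most nuclei, and the leading chain of each cluster. Of the 24 chains with at least 200 expected joint openings, the 3 highest and 3 lowest in co-openness were also named. Gene symbols come from regions of the study that overlap a member. Members and lists were chosen with earlier results of these data known.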

Additional observations from a re-analysis of the deposited data

How the results depend on the processing

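The median of members lay above that of other peaks in 13 of 13 settings that gave both, and 66 alternative values were computed, 34 of which stayed within the interval or SD of the reported value, or within 1.5 times a count. The size of the set depends on its limits. A gap limit of 2000 bp gave 50 members, a median of 3.49%, 14.0% open in at least 10% of nuclei and a width of 286.5 bp. A limit of 10000 bp gave 11756 members, medians of 1.61% and, for other peaks, 1.17%, and a width of 328 bp. At least 4 peaks gave 4046 members and 1.21% for other peaks, and at least 8 gave 206 members, 1.75% and 5.83%. Chaining only peaks open in at least 1% of nuclei gave 746 members, 3.42% against 2.59%, 14.6% and 348.5 bp. Nuclei with at least 1000 open peaks gave 2.63% against 1.67%, and 11.8%. Alone, the runs of 430, 715, 748 and 844 rows gave 1.16%, 1.40%, 1.47% and 0.829% for other peaks, the last 3 gave 2.38%, 2.14% and 1.30% for members, and runs 1, 3 and 4 gave 11.9%, 8.90% and 4.21% open in at least 10% of nuclei. Co-openness was 1.14 in the first run, where 22 pairs remained, and between 1.20 and 1.58 in the other alternatives, the one within row runs having been added after the data were seen. At resolution 0.5, 5 of the 7 leading chains led a cluster again. The causes were not tested.

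No paired analysis was possible because each time point has 1 library and no row names its library. The alternatives on gene starts and on motifs were not run, since no genome or gene positions of this build were used. A peak open in few nuclei has a wide interval: 5 of 2737 nuclei is 0.183% (0.059 to 0.426%).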
